A study of Mus musculus with 36 samples.

Results

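The RNA of the hippocampus of old mice was compared between mice that had been fear conditioned and naive mice, in 6 libraries of the 36 samples of the series. The members are all RNA libraries whose titles name old mice: conditioned libraries 61, 63 and 65, and naive libraries 67, 69 and 71. All mice were of the strain C57BL/6J, with no engineered allele named in the labels, and were 15.5 months old. The conditioned mice went through a 5 min session with 3 foot shocks of 0.5 mA lasting 2 s each, and their brains were frozen 30 min after training. For the naive mice the labels give no session or handling. The remaining samples used here are 6 RNA libraries of young mice (2.5 months), 3 conditioned and 3 naive, which serve to set the old mice beside another age. Whether each library is 1 animal or a pool is not stated in the labels, so p-values measure the spread between these libraries.

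Contextual fear conditioning pairs a place with a shock, and the hippocampus is needed to form the memory of that place. Strong synaptic activity switches on immediate early genes within minutes: calcium and kinase signals act on transcription factors already present in the nucleus, chiefly CREB and the serum response factor, so no new protein is needed. Some early genes encode transcription factors (the Fos and Jun families, the Egr zinc fingers, the Nr4a orphan receptors, Npas4), others encode brakes on the same signalling (Dusp1, Sik1) or proteins that act at synapses (Arc). Their mRNAs are short lived, so the time of freezing decides which of them are seen.

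Each library held between 10892540 and 12857196 counts over 24060 gene symbols, of which 14405 passed the filter on low counts and were tested. No pair of replicates agreed within counting error, with chi-square values of 4.30 to 15.9 per degree of freedom over all 4 groups. The tissue label was checked against markers: CA1 pyramidal cell markers averaged 6.49, 6.33 and 6.23 log2 CPM (CPM are counts scaled to a common library size; prior count of 2) in the conditioned libraries, against 6.25, 6.40 and 6.02 in the naive libraries. Dentate granule cell markers averaged 5.93, 6.00 and 6.20 log2 CPM in the conditioned libraries and 6.22, 6.15 and 6.48 in the naive libraries. Both sets of hippocampal markers were therefore present in every library.

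The libraries differed widely in RNA of the choroid plexus, the secretory tissue of the ventricles beside the hippocampus. Ttr, which encodes its main secreted protein transthyretin, stood at 42.6, 29.3 and 118 CPM in conditioned libraries 61, 63 and 65, against 493, 1645 and 117 CPM in naive libraries 67, 69 and 71. Naive library 69 had the highest level and conditioned library 63 the lowest, while libraries 65 and 71 were level, so the groups overlapped. The log2 fold change of Ttr (conditioned over naive throughout) was -3.57 with a standard error of 1.21 and an edgeR adjusted p of 0.695. All 19 tested choroid markers of 20 listed had a fold change below 0, with a median of -2.20 on the log2 scale, where the median of all genes was -0.002. Their summed level was 362 to 545 CPM in conditioned libraries and 577 to 3327 CPM in naive libraries. The mean log2 CPM of the choroid list was 1.87 ± 0.50 in conditioned and 3.78 ± 1.32 in naive libraries (SD, n = 3 each), a difference of -1.91. Of the choroid markers, 16 reached an unadjusted p under 0.05 in the lower direction, against 3.69% of all genes, and none passed adjustment.

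Malat1, an abundant long noncoding RNA that stays in the nucleus, varied within each group more than between groups. It stood at 5572, 10454 and 9310 CPM in conditioned libraries and at 6552, 7030 and 11985 CPM in naive libraries, with a log2 fold change of -0.01 and an adjusted p of 0.994 (edgeR). Conditioned library 61 was the lowest of the 6 and naive library 71 the highest. The 9 tested nuclear-retained RNAs averaged 8.25 ± 0.28 log2 CPM in conditioned and 8.23 ± 0.25 log2 CPM in naive libraries (SD, n = 3 each). Nuclear RNA thus set single libraries apart without separating the groups. The part that choroid or nuclear RNA played in the results that follow was not tested, beyond the fits with each as a covariate that are given beside the calls.

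**Figure D1:**
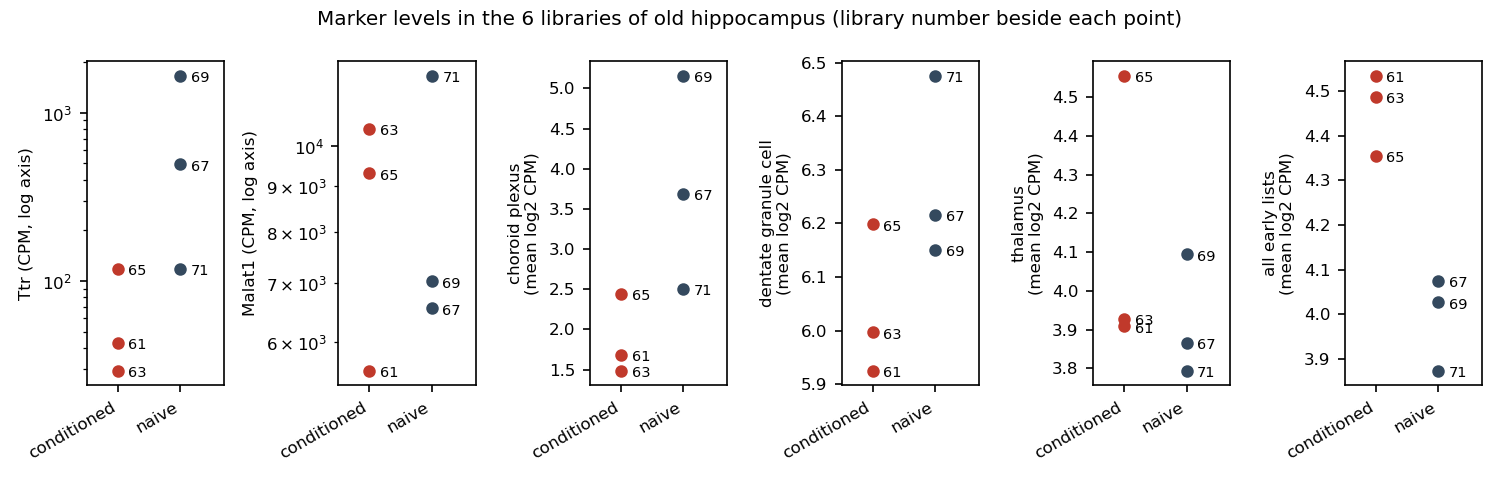
Levels of Ttr and Malat1 (CPM, log axes) and mean log2 CPM of 4 gene lists in the 6 libraries of old hippocampus, conditioned left and naive right, with 1 point per library and its number. The choroid markers are highest in naive libraries 67 and 69, Malat1 overlaps between the groups, and the early genes of the 3 conditioned libraries (4.36 to 4.53) lie above those of the 3 naive libraries (3.87 to 4.08).

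The 2 genes Fosb and Dusp1 were higher in conditioned than in naive libraries past the adjusted threshold of 0.05, and none was lower. They are 0.0139% of the genes tested in edgeR's quasi-likelihood fit with Benjamini-Hochberg adjustment, and 0% of genes were called lower. At an unadjusted p under 0.05 there were 500 genes higher (3.47%) and 531 lower (3.69%). By DESeq2 8 genes (0.0555%) passed in the higher and 1 (0.00694%) in the lower direction, while limma voom called 2 higher and 0 lower. Leaving out any 1 library of the old mice left 0 or 1 call: none without library 61, 63, 67 or 71, and Dusp1 without library 65 or 69. With the choroid score as a covariate no gene was called, and with the nuclear score as a covariate Sik1 joined the 2 genes. Without young naive library 79, which enters through the shared estimate of spread, 8 genes were called: Fosb, Dusp1, Fos, Junb, Arc, Nr4a1, Egr4 and Sik1. With the 6 libraries of old mice alone 8 genes were also called, with Cyr61 in place of Sik1.

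Fosb, a Fos-family partner in the AP-1 transcription factor, stood at 16.6, 17.6 and 15.8 CPM in the conditioned libraries, against 8.99, 7.24 and 7.62 CPM in the naive libraries. Every conditioned library lay above every naive one, by a log2 fold change of 1.06 with a standard error of 0.14 and an edgeR adjusted p of 0.0115. Dusp1, a phosphatase that switches off MAP kinases, stood at 20.2, 17.3 and 16.5 CPM in the conditioned libraries, against 7.89, 10.3 and 7.98 CPM in the naive libraries. Its groups did not overlap either, and its log2 fold change was 1.05 with a standard error of 0.14 and an edgeR adjusted p of 0.0115. Across 25 settings the log2 fold change of Fosb ranged between 0.94 and 1.16 and that of Dusp1 between 0.96 and 1.18. Fosb was called under 17 of these settings and Dusp1 under 19.

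Fos, the founding member of the family, had the highest log2 fold change of the early genes. It stood at 18.4, 20.9 and 15.7 CPM in the conditioned libraries, against 5.76, 4.22 and 2.87 CPM in the naive libraries, without overlap. Its log2 fold change was 2.08 with a standard error of 0.37, and its edgeR adjusted p of 0.112 missed the threshold. With the 6 old libraries alone, the edgeR adjusted p of Fos was 0.00125. Junb, a Jun-family partner of the Fos proteins, stood at 59.9, 55.4 and 43.4 CPM in the conditioned libraries, against 29.7, 21.3 and 26.9 CPM in the naive libraries. Its groups were likewise apart, with a log2 fold change of 1.02, a standard error of 0.19 and an edgeR adjusted p of 0.112 (0.0099 with the old libraries alone). With the choroid score as a covariate, the log2 fold change was 1.58 for Fos and 0.74 for Junb, the lowest of the 25 settings for both. Of the 10 AP-1 and bZIP factors listed, 7 were tested, 6 had a fold change above 0 and the median was 0.37. Jun itself had a log2 fold change of -0.03, and Fosl1, Atf3 and Maff did not pass the filter.

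The Egr and Klf zinc fingers, DNA-binding factors that carry the activity signal to later genes, had the median log2 fold change 0.62 over 8 tested members, 7 of them above 0. Egr4 stood at 34.1, 28.9 and 25.3 CPM in the conditioned libraries, against 17.6, 15.8 and 16.1 CPM in the naive libraries. The groups were apart by a log2 fold change of 0.83, with a standard error of 0.15 and an edgeR adjusted p of 0.112 (DESeq2 0.00107). Egr1, also known as Zif268 and widely used as a marker of hippocampal activity, stood at 166, 191 and 116 CPM in the conditioned libraries, against 102, 91.9 and 71.9 CPM in the naive libraries. Its log2 fold change of 0.83 came with a standard error of 0.22 and an edgeR adjusted p of 0.612; library 65 was the lowest of the conditioned and lay closest to the naive libraries. Egr2 had a log2 fold change of 1.98 from low levels, 6.54, 6.82 and 5.34 CPM in the conditioned libraries against 2.60, 1.65 and 0.359 CPM in the naive libraries. Klf2 had a log2 fold change of 0.86 and Egr3 of 0.24, and neither passed adjustment.

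All 4 tested genes of the Nr4a and Npas4 list had a fold change above 0, with a median of 0.74 on the log2 scale. Nr4a1, an orphan nuclear receptor, stood at 85.8, 83.4 and 66.9 CPM in the conditioned libraries, against 43.8, 36.5 and 39.2 CPM in the naive libraries, a log2 fold change of 0.98 with an edgeR adjusted p of 0.612. Npas4, a neuronal factor induced by calcium entry, stood at 10.1, 11.9 and 9.30 CPM in the conditioned libraries, against 5.52, 4.86 and 6.72 CPM in the naive libraries. Both genes separated the groups, and neither passed adjustment in the fit on all 12 libraries. With the 6 old libraries alone Nr4a1 passed (edgeR adjusted p 0.00229). Npas4 had a log2 fold change of 0.87, which was 0.39 with the choroid score as a covariate.

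Among inhibitors and kinases of the same signalling, 11 of 13 tested members were above 0, with a median log2 fold change of 0.23. Sik1, a salt-inducible kinase that restrains CREB coactivators, stood at 24.9, 18.1 and 19.99 CPM in the conditioned libraries, against 12.7, 13.1 and 10.7 CPM in the naive libraries. It had a log2 fold change of 0.79, a standard error of 0.13 and an edgeR adjusted p of 0.105 (DESeq2 0.00121). Spry2, which encodes a Sprouty inhibitor of receptor kinases, lay lower in every conditioned library (62.8, 60.1 and 57.7 CPM) than in the naive libraries (65.1, 67.5 and 66.7 CPM), a log2 fold change of -0.14. Of the RNA, growth arrest and stress regulators, 13 of 15 were above 0, with a median of 0.21. Btg2, which slows cell division and promotes mRNA decay, had a log2 fold change of 0.49 with an edgeR adjusted p of 0.491. Tiparp, of the poly(ADP-ribose) polymerase family, had one of 0.29 with an edgeR adjusted p of 0.695. Ier2 had a log2 fold change of 1.10 and Gadd45b one of 0.56, both without overlap between the groups.

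The synaptic and secreted early genes were divided. Arc, which encodes a capsid-like protein that helps remove AMPA receptors from synapses, stood at 178, 176 and 134 CPM in the conditioned libraries, against 93.1, 62.3 and 60.0 CPM in the naive libraries. Its log2 fold change of 1.18, with a standard error of 0.26, had an edgeR adjusted p of 0.309 (0.00741 with the 6 old libraries alone). Cyr61, a secreted matrix protein, stood at 6.10, 5.68 and 5.69 CPM in the conditioned libraries, against 2.52, 2.66 and 2.15 CPM in the naive libraries, a log2 fold change of 1.25 with an edgeR adjusted p of 0.112 (DESeq2 0.0189). Apold1, expressed in activated endothelium, had a log2 fold change of 1.14 with an edgeR adjusted p of 0.169. By contrast, Bdnf (-0.17), which encodes a neurotrophin, and Homer1 (0.10), a scaffold of glutamate receptors, had log2 fold changes near 0, and the libraries of the groups overlapped for both. The deposited counts are per gene, so short activity-induced transcripts of Homer1 and Bdnf cannot be told from their longer forms.

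**Figure D2:**
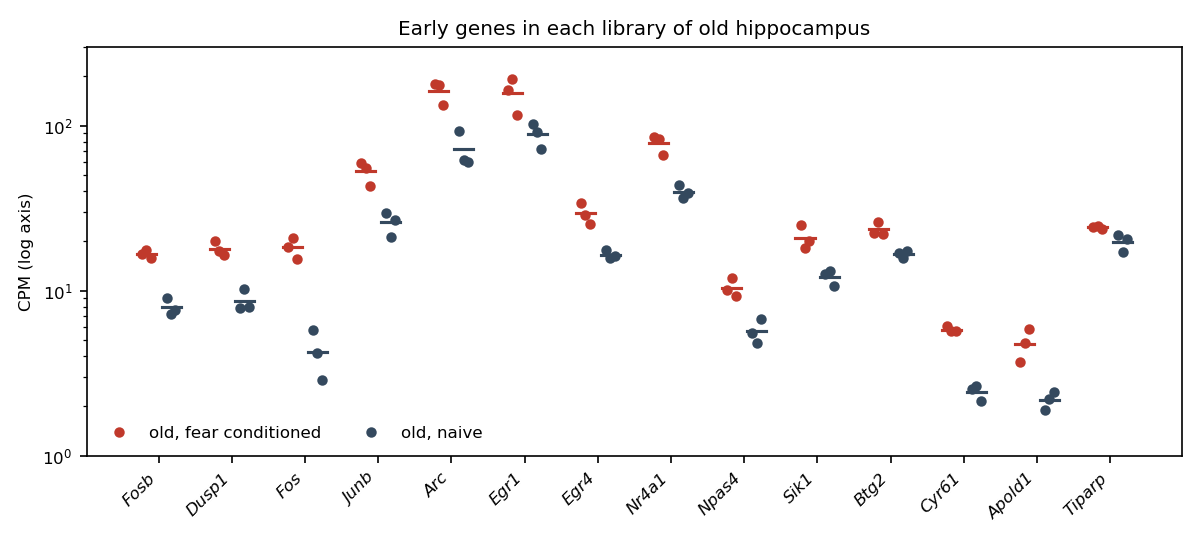
Level of 14 early genes (CPM, log axis) in the 3 conditioned (left of each pair) and 3 naive libraries (right) of old hippocampus, with bars at the group means. All 14 separate the groups, Fos by the largest factor of these genes (15.7 to 20.9 against 2.87 to 5.76 CPM). Fosb and Dusp1 are the 2 that passed adjustment. The genes come from lists drawn up with earlier results of these data known, so their separation is description only. In this direction 26 of the 56 tested early genes and 6.57% of all genes are separated.

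Over all early lists, 48 of 56 tested genes (of 60 listed) had a fold change above 0, against 49.4% of all genes, and the median was 0.28 on the log2 scale. In 26 of the 56 every conditioned library lay above every naive library (6.57% of all genes did so), and in 1 the reverse held (6.22% of all genes). The lists were drawn up with earlier results of these data known, so these counts describe and do not support. The mean level of the early genes was 4.46 ± 0.09 log2 CPM in conditioned and 3.99 ± 0.10 log2 CPM in naive libraries (SD, n = 3 each), a difference of 0.47. Library 65, with the lowest early score of the conditioned libraries (4.36), also had the highest Ttr of the 3, and library 71, with the lowest early score of the naive libraries (3.87), had the lowest Ttr of its group. With 3 libraries in each group these orders are description only. A link between the choroid and early scores was not tested, beyond the fits with the choroid score as a covariate.

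**Figure D3:**
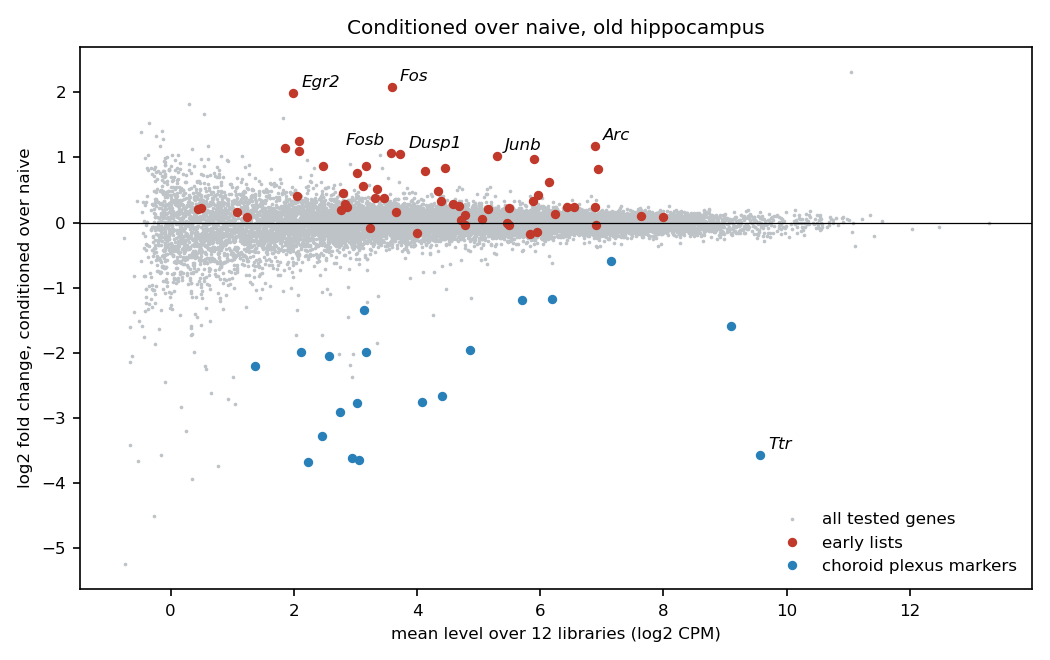
Log2 fold change (conditioned over naive) against mean log2 CPM for the 14405 tested genes, with early-list genes in red and choroid plexus markers in blue. Fos and Egr2 lie near 2, Ttr lies at -3.57 and the median of all genes is -0.002.

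The promoters of Dusp1 and Fosb, the 2 genes past adjustment, and of Fos and Junb are shown for the cAMP response element, the site bound by CREB, which is a well-known element of early genes. The sequences are the 250 bases before the transcription start in RefSeq's GRCm38.p6, written 5′ to 3′ along the gene, with the element's core TGACG on either strand in capitals, and the whole palindrome TGACGTCA where it occurs. Dusp1 lies on the minus strand at chr17:26508473-26508722, Fosb on the minus strand at chr7:19310046-19310295, Fos on the plus strand at chr12:85473640-85473889 and Junb on the minus strand at chr8:84978749-84978998.
Dusp1: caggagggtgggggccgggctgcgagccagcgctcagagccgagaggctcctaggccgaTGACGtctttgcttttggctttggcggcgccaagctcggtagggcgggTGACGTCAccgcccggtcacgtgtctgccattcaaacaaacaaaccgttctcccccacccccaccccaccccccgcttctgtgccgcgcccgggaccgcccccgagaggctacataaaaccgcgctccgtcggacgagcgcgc
Fosb: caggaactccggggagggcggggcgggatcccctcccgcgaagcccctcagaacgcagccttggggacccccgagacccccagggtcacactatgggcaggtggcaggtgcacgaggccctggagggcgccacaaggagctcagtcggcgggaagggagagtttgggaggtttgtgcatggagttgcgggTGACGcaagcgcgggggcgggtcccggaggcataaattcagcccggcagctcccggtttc
Fos: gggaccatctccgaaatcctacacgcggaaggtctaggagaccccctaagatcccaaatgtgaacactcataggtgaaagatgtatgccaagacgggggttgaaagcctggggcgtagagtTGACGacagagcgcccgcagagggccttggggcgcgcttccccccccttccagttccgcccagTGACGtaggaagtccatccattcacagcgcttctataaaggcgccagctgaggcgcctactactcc
Junb: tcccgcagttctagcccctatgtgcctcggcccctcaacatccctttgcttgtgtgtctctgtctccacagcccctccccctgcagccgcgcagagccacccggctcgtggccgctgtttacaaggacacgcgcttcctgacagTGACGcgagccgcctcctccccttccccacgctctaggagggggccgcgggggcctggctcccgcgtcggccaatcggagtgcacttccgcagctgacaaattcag
Of the 14 early genes named throughout, 11 were found in the RefSeq promoter table, and Arc, Egr1 and Sik1 were not. The core was searched on both strands in windows of 250 bases before to 50 after the start, where it can overlap the palindrome. It occurred in 10 of the 11, Tiparp being the exception, and in 20.8% of all 32851 windows. The palindrome occurred in Dusp1 and Btg2, and in 1.79% of windows. Neither the AP-1 site TGANTCA (7.81% of windows) nor the CArG box bound by serum response factor (1.63%) occurred in these 11 windows, which says nothing of more distant elements. The 11 windows also held more CG dinucleotides (median 25, against 7 in all windows), and the core itself contains CG.

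The young mice were set beside the old ones over 153 genes chosen in the old mice alone, namely those with a mean of at least 2 log2 CPM, an unadjusted p under 0.01 and no overlap between the groups (1.06% of genes). Of these, 17 belonged to the early lists, and all 17 were higher in conditioned than in naive libraries of old mice. All 17 also had a fold change above 0 in young mice, 16 of them with an unadjusted p under 0.05 (3.45% of all genes in that direction) and 4 past adjustment (0.0278% of all genes). Their median log2 fold change was 0.87 in old and 0.88 in young mice. The libraries of the 2 ages are separate, but both contrasts use the same estimate of spread for a gene. Choosing genes by a small p in old mice therefore also favours a small p in young mice, and the share of all genes is not a matched background. The early lists were also drawn up with results of both ages known.

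The other 136 genes are given for both ages beside the share of all genes above 0 in young mice, 48.4%, and the early genes were not tested against them. Of the 70 that were higher in old conditioned libraries, 22 had the same sign in young mice and 1 reached an unadjusted p under 0.05, with medians of 0.31 in old and -0.04 in young mice on the log2 scale. Of the 66 that were lower, 35 had the same sign in young mice and 4 reached an unadjusted p under 0.05 (3.18% of all genes in that direction), with medians of -0.24 in old and -0.01 in young mice. The old values chose the genes and so are larger by construction. A difference between the ages was tested as an interaction over all genes, and edgeR called 0 (smallest adjusted p 0.607), with 1037 genes (7.2%) at an unadjusted p under 0.05. By DESeq2 1 gene passed, Kcnt1, which encodes a potassium channel opened by sodium, with a log2 difference between the ages of 0.78 and an adjusted p of 0.00912. Kcnt1 stood at 35.8, 36.3 and 34.3 CPM in old conditioned and at 23.8, 29.8 and 27.8 CPM in old naive libraries, a log2 fold change of 0.39 in old and -0.38 in young mice.

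**Figure D4:**
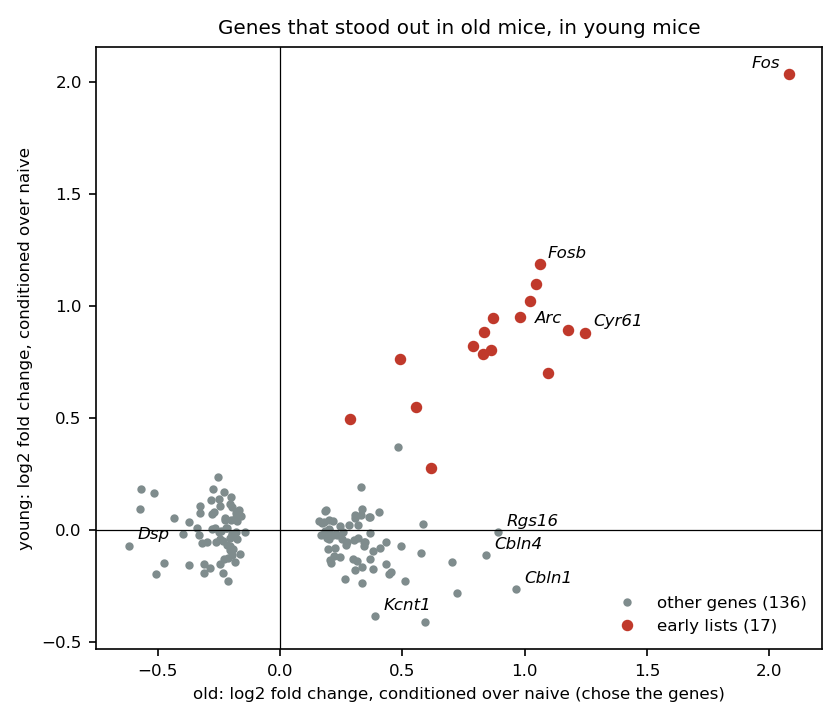
Log2 fold change (conditioned over naive) in young mice against that in old mice for the 153 genes chosen in old mice, with the 17 early-list genes in red. All red points lie above 0 on both axes (median 0.87 in old, 0.88 in young), while the other genes spread around 0 on the young axis.

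Outside the early lists, DESeq2 called Cbln4, Slc6a7 and Syngr3 higher and Ranbp2 lower. In the edgeR fit reported here none of the 4 passed, and with no filter on low counts edgeR called Cbln4 as well (adjusted p 0.0234). Cbln4, a secreted cerebellin that organizes synapses, stood at 15.4, 12.6 and 12.2 CPM in the conditioned libraries, against 8.75, 5.96 and 7.62 CPM in the naive libraries. Its log2 fold change was 0.84 (edgeR adjusted p 0.112, DESeq2 0.0102) in old mice and -0.11 in young mice. Slc6a7, a brain proline transporter, had a log2 fold change of 0.37, and Syngr3, a synaptic vesicle protein, one of 0.33. Ranbp2, a nucleoporin, stood at 235, 277 and 270 CPM in conditioned and at 338, 309 and 328 CPM in naive libraries, with a log2 fold change of -0.32. Among the genes with the largest separated differences, Cbln1, another cerebellin, had a log2 fold change of 0.97 in old and -0.26 in young mice, and Rgs16, a brake on G protein signalling, one of 0.89 in old and -0.01 in young mice. Of 11 tested markers of the neighbouring thalamus in the list used here, 9 were above 0 (49.4% of all genes), with a median log2 fold change of 0.16. Tcf7l2, whose groups overlapped, had 0.68 and Lef1 had 0.63. The thalamus list stood highest in conditioned library 65 (4.55 log2 CPM). Libraries 61 and 63 stood at 3.91 and 3.93, within the 3.79 to 4.09 of the naive libraries. Library 65 was also highest for Rgs16 (12.4 CPM), and lowest of the conditioned libraries for Cbln1 (6.38 CPM) and Cbln4 (12.2 CPM). The part of thalamic tissue in these differences was not tested.

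Among the 10 genes with the lowest separated log2 fold changes, 2 were markers of dentate granule cells. Dsp, which encodes the junction protein desmoplakin, stood at 55.2, 59.3 and 65.9 CPM in conditioned and at 76.9, 77.1 and 123 CPM in naive libraries, with a log2 fold change of -0.62 and an edgeR adjusted p of 0.597. Pdzd2, a PDZ-domain protein, had a log2 fold change of -0.51 with an adjusted p of 0.695. Over the 14 dentate markers, 1 had a fold change above 0 (49.4% of all genes did) and 13 one below 0, with a median of -0.21. In the lower direction 6 of the 14 reached an unadjusted p under 0.05, against 3.69% of all genes, and naive library 71 had the highest dentate score. In bulk tissue, fewer cells of a type and less RNA per cell cannot be told apart. The remaining genes of this group had log2 fold changes of -0.57 (Fam84b, Rps27l) to -0.37 (Cep162, Fat4), and none passed adjustment.

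The lists of later activity effectors, glucocorticoid-responsive, clock and heat shock genes were centred near 0 at 30 min. Of 25 later activity effectors, 14 were above 0, with a median log2 fold change of 0.02; 1 reached an unadjusted p under 0.05 in the higher (3.47% of all genes) and 3 in the lower direction (3.69%). Inhba, which encodes a subunit of activin, stood at 4.24, 3.93 and 3.79 CPM in conditioned and at 5.44, 5.41 and 6.46 CPM in naive libraries, with a log2 fold change of -0.53. Of 19 tested glucocorticoid-responsive genes, 10 were above 0, with a median of 0.01. The mean of this list was 4.47 ± 0.04 log2 CPM in conditioned and 4.47 ± 0.25 log2 CPM in naive libraries (SD, n = 3 each). Naive library 71 stood highest (4.75), while every conditioned library stood above naive libraries 67 and 69. The centre near 0 of this list therefore depended on library 71. In young mice 17 of the 19 were above 0, with a median of 0.26. Ddit4, an inhibitor of mTOR signalling, stood at 55.8, 48.4 and 52.2 CPM in conditioned and at 34.5, 35.6 and 42.05 CPM in naive libraries, with a log2 fold change of 0.48 and an edgeR adjusted p of 0.604. Fkbp5, a cochaperone of the glucocorticoid receptor and a common readout of the stress hormone, had a log2 fold change of -0.22. Clock genes (13 of 19 above 0, median 0.09) and heat shock genes (11 of 18 above 0, median 0.04) gave no member past adjustment.

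Genes of the presynaptic release machinery had a median log2 fold change of 0.09, with 19 of 26 members above 0 (49.4% of all genes). In 8 of the 26 the groups were separated in the higher direction (6.57% of all genes) and in 1 in the lower (6.22%). Stx1a, a syntaxin of the vesicle fusion complex, stood at 78.2, 71.7 and 71.7 CPM in conditioned and at 64.1, 64.0 and 61.6 CPM in naive libraries, a log2 fold change of 0.22 with an edgeR adjusted p of 0.695. Pclo, a large scaffold of the active zone, had a log2 fold change of -0.20. Glutamate receptors (10 of 22 above 0, median -0.01) and GABA receptors (5 of 14 above 0, median -0.03) were centred on the background. The histone variant that the series profiles was level as RNA in old mice. H2afz stood at 83.3, 74.6 and 76.5 CPM in conditioned and at 84.0, 79.3 and 83.7 CPM in naive libraries, with a log2 fold change of -0.08. H2afv, which encodes the other form of H2A.Z, had one of 0.01. In young mice H2afz had a log2 fold change of 0.18 (edgeR unadjusted p 0.0138). Its interaction between the ages did not pass adjustment (edgeR adjusted p 0.680). The list of H2A.Z and its machinery had a median of -0.01, with 7 of 16 tested genes above 0. It names H2afz, H2afv, H2afy and H2afy2 beside genes of H2A.Z deposition and removal. In the lower direction 2 of the 16 reached an unadjusted p under 0.05 (3.69% of all genes). These were Ep400, with a log2 fold change of -0.15, and Actr6, with -0.28. None of these genes passed adjustment.

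**Figure D5:**
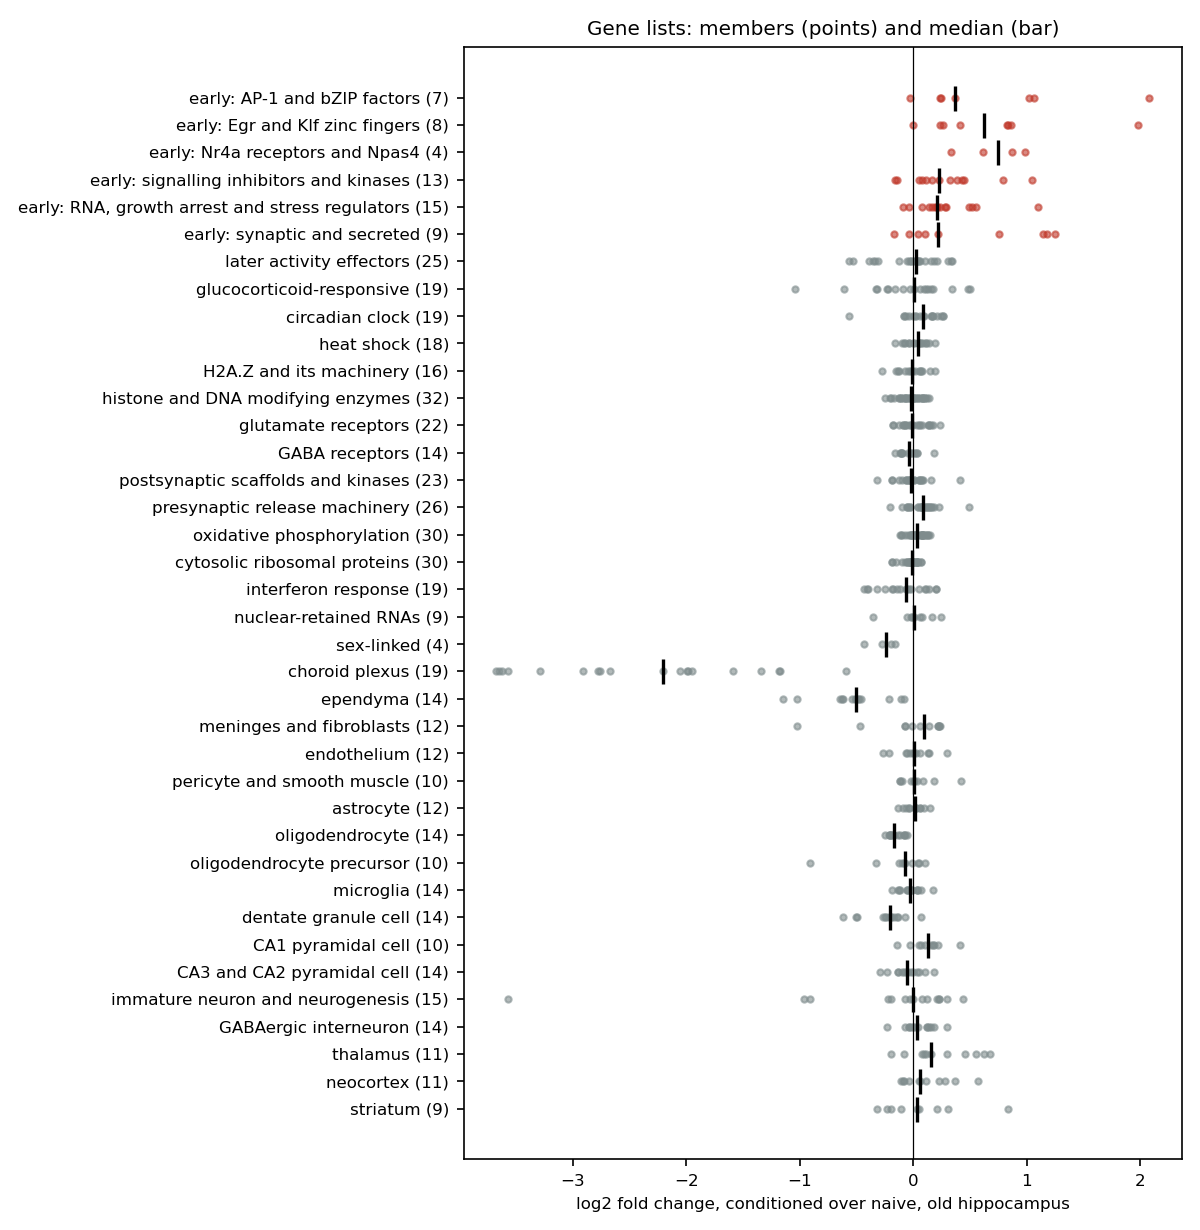
Log2 fold change (conditioned over naive, old hippocampus) of the tested members of each gene list with at least 4 of them, 1 point per gene and a bar at the median, with the number of tested members in parentheses. The early lists (red) have medians of 0.21 to 0.74, the choroid plexus markers one of -2.20, and most other lists lie near 0.

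The authors' deposited table of H2A.Z peaks gives another readout in old mice, from other libraries, as log2 fold between conditioned and naive groups without values per library. In the authors' deposited table the promoter peak nearest the start was lower in conditioned mice for 11464 of 11646 genes. The median in the authors' deposited table was -1.03 (5th to 95th percentile -1.84 to -0.37), and 16.4% of the genes were lower at an FDR under 0.05. Of the 14 named early genes, 12 had a promoter peak within 1 kb. All 12 values in the authors' deposited table were below 0, as were nearly all promoters, with a median of -0.86. Tiparp had the lowest of these values in the authors' deposited table, -1.51 (FDR 0.000457), and Cyr61 the value nearest 0, -0.22. Sik1 had -1.28 (FDR 0.0200), Fosb -1.28 (FDR 0.297), Fos -1.49 (FDR 0.380) and Dusp1 -0.85 (FDR 0.0861) in the authors' deposited table. Over all early lists, 54 genes had such a peak, with a median of -1.01 in the authors' deposited table and 8 lower at an FDR under 0.05, close to the values of all promoters.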

How the data were processed

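RNA of 12 hippocampal libraries was used, 3 for each of 4 groups of age and training, of which the 6 of old mice are described; 3 libraries a group set the precision. For RNA the authors deposited unnormalized integer counts of reads, listed by gene symbol, with no gene lengths, so levels are compared within a gene and not between genes. Per the submitters' processing notes, the tools of the series include TopHat, HTSeq 0.6.1p2, edgeR 3.8.6 and DiffBind 1.12.2, with builds mm9 and mm10; the sources used here do not give the build and strand setting of the RNA. The authors' deposited H2A.Z table holds log2 folds and log2 levels, p-values and FDR values of the authors, and other columns of called libraries and distances to genes; its T groups were read as conditioned by exclusion.

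Counts were fitted in R 4.3.3 with edgeR 4.0.16: TMM factors, filterByExpr, quasi-likelihood F tests, Benjamini-Hochberg adjustment over 14405 genes at 0.05. All 4 groups share 1 estimate of spread. Standard errors were derived from the F statistic. CPM were library-normalized, and log2 CPM had a prior count of 2. DESeq2 1.42.0, limma 3.58.1 voom and other settings were alternatives. The fit was tested on simulated data. Intervals of counting error are not given per gene.

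Members and lists were chosen with earlier results of these data known. Named genes are those past adjustment, 18 fixed genes, up to 3 genes of smallest p per list, and the 10 highest and 10 lowest log2 fold changes among genes of mean log2 CPM of at least 2, unadjusted p under 0.01 and no overlap, outside ventricle and meninges lists. Genes outside it were chosen after their values were seen: Egr2, Egr3, Spry2, Jun, Bdnf, Homer1, Pclo, Kcnt1, Lars2, and the DESeq2 calls Cbln4, Slc6a7, Syngr3 and Ranbp2. Input libraries were not used here. Python 3.11.15 with pandas 2.3.3 and matplotlib 3.10.9 served the tables and figures.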

Additional observations from a re-analysis of the deposited data

How the results depend on the processing

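The genes called in old mice numbered 9 with DESeq2, 9 with no filter on low counts, 9 with DESeq2 and no filter, 8 with the 6 old libraries alone, 8 without young naive library 79, and 0 with the choroid score as a covariate, against 2 as reported; leaving out 1 library of either age gave 0 to 8. Leaving out libraries 61 and 69 together, a choice made after seeing the data, as were the settings without a young library and DESeq2 without the filter, gave 0. The cause of these moves was not tested, except that fewer libraries or genes enter some fits. The other settings gave 2 or 3 calls. Genes called between the ages numbered 1 with DESeq2 and 0 under every other setting run. The early score difference stayed between 0.41 and 0.52 and the choroid difference between -2.55 and -1.23. Of 3221 values for 129 named genes under up to 25 settings, 3163 kept their direction and side of the threshold, 14 lost and 27 gained a call, and 17 changed sign in 9 genes, none of them called. A gene that was not called and stayed so with the same sign counts among the 3163, so that number says little of the calls. Only Fosb and Dusp1 could lose a call, and all 14 losses fell on these 2 genes. Malat1 had a log2 fold change of 0.12 with voom, 0.21 without library 61, 0.31 without 71 and 0.093 without both 61 and 69; H2afv had -0.036, -0.11, -0.07 and -0.10 under the same 4 settings. Hba-a2 had 0.44 with voom, 0.02 without 63 and 0.61 without 71. With the choroid score Mirg had -0.13, Igfbp2 0.13 and Ppp1r1b 0.079. Hspb8 had 0.0028 without 69, and without 71 Hspa8 had -0.0066 and Alas2 0.53. Leaving out 1 library at a time, log2 fold changes ran between -0.20 and 0.31 for Malat1, -0.11 and 0.13 for H2afv, -0.74 and 0.61 for Hba-a2, -0.24 and 0.0028 for Hspb8, -0.0066 and 0.21 for Hspa8, and -0.84 and 0.53 for Alas2. The cause of the sign changes was not tested. No paired analysis was possible because no number in a title of an RNA library occurs in more than 1 group. With 3 libraries a group, an exact permutation test of 1 value cannot go below 0.1, and genes under about 1 CPM rest on few counts.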

Other observations

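Lars2, chosen after its values were seen, varied widely between libraries of both groups. It encodes the mitochondrial leucyl-tRNA synthetase and stood at 13615, 2656 and 637 CPM in conditioned libraries 61, 63 and 65, against 320.1, 2398 and 671 CPM in naive libraries 67, 69 and 71. The groups overlapped, and the log2 fold change of 2.32 had an edgeR adjusted p of 0.695.

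Ependymal markers, from the ciliated lining of the ventricles, all had a fold change below 0 (14 of 14 tested, median -0.51 on the log2 scale), and 4 of them separated the groups in the lower direction, as did 6.22% of all genes. Their mean was 1.54 ± 0.23 log2 CPM in conditioned and 2.02 ± 0.18 log2 CPM in naive libraries (SD, n = 3 each). Oligodendrocyte markers, which include the main myelin genes, were also all below 0 (14 of 14, median -0.17), where 49.4% of all genes were above 0. Of these markers 3 were separated in the lower direction (6.22% of all genes). In each of the lists 1 member reached an unadjusted p under 0.05 in the lower direction (3.69% of all genes). In young mice the medians of these lists were -0.43 and -0.30.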
